A study of Mus musculus with 4 samples.

Results

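The myosin heavy chain genes of muscle sarcomeres were followed in mouse gastrocnemius, a mostly fast muscle of the calf. The 7 members Myh1, Myh2, Myh3, Myh4, Myh7, Myh8 and Myh7b were found by gene symbol, and each had 1 row among the 23282 rows deposited. All 7 had reads in every library and passed the minimum of 4 normalized reads used below. The 4 libraries compared were 1 for each group of CDF1 mice. Normal control mice had neither exercise nor tumor, normal exercise mice had high-intensity treadmill running, cancer control mice had CT26 murine colorectal cancer cells injected into the tail vein, and cancer exercise mice had both. The labels give postnatal day 28 for all groups, and they name no transgene and no deleted gene. The study's text gives that age, 4 weeks, for the mice as purchased, and tissue was taken at the end of the experiment. The labelled age may therefore not be the age at sampling. The study's text speaks of 1 representative mouse a group, while the series describes a larger group size, so it is not known if the RNA of a library is from 1 animal or pooled. With 1 library a group there was no replicate spread and no test, and each difference below compares 2 libraries.

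A myosin heavy chain is the motor of the thick filament. Each isoform hydrolyses ATP at its own rate, and the isoform that a fibre makes sets how fast it shortens. In adult mouse limb muscle, Myh4 encodes the fastest chain (IIb), Myh1 the IIx chain, Myh2 the IIa chain of fast oxidative fibres and Myh7 the slow chain (I), which the heart also uses. Myh3 and Myh8 encode the embryonic and perinatal chains, made during development and in regenerating fibres. Myh7b encodes an ancient slow-tonic chain found in muscle spindles and extraocular muscle. Fast and developmental genes stand in 1 cluster, and a fibre normally runs mainly 1 of them at a time.

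On mouse chromosome 11 (GRCm38, the build that the submitters' processing notes name as mm10; gene ends from GENCODE), the cluster reads in the order Myh3 (67078300 to 67102291), Myh2 (67171027 to 67197517), Myh1 (67200052 to 67224575), Myh4 (67238029 to 67260446) and Myh8 (67277124 to 67308634), all on the plus strand. Myh7 lies on chromosome 14 (54970684 to 54994626, minus strand), and Myh7b on chromosome 2 (155611212 to 155634307, plus strand). Between the end of Myh2 and the start of Myh1 there are 2534 bases, against 13453 between Myh1 and Myh4 and 16677 between Myh4 and Myh8.

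The promoters of 4 cluster genes are shown because all 4 share a stretch of sequence. On the deposited values, Myh1 and Myh2 were higher in both tumor libraries than in both tumor-free ones, and Myh4 and Myh8 were not. In sedentary mice, the sign of the tumor difference of Myh4 and of Myh8 depended on scaling. A link between sequence and level was not tested. The windows shown are the 250 bases before the RefSeq start (GRCm38.p6), plus strand, 5′ to 3′. The RefSeq starts of Myh1 (67200102) and Myh4 (67237812) differ from the GENCODE gene starts given above. Distances below are counted from the RefSeq starts. Capitals mark the longest run that all 4 share, TTCTAATTATATCC, and the longest run that Myh1, Myh4 and Myh8 share, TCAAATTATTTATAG.
Myh2 (chr11:67170777-67171026): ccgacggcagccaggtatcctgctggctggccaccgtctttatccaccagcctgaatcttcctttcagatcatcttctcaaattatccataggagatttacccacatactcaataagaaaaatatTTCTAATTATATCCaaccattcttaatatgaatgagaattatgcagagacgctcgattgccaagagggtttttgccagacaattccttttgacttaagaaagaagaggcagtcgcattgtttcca
Myh1 (chr11:67199852-67200101): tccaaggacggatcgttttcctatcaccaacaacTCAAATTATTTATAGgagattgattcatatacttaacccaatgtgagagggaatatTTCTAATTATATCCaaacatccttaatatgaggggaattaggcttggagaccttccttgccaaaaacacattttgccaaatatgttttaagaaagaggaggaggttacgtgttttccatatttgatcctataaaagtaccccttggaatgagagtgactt
Myh4 (chr11:67237562-67237811): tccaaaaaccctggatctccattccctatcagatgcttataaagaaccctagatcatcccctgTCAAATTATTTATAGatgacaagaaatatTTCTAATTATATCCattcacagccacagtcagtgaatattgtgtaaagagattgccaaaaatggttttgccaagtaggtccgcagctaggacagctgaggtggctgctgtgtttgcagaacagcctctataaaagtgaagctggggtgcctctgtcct
Myh8 (chr11:67276874-67277123): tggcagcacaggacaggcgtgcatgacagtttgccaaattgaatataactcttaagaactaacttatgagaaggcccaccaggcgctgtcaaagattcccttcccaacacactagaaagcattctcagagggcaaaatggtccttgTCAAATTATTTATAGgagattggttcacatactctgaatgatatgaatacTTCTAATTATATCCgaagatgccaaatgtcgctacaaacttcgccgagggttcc
The 14-base run begins 125 bases before the start in Myh2, 160 in Myh1, 158 in Myh4 and 54 in Myh8. On either strand it occurs in 4 of the 32851 RefSeq promoter windows of this length, that is, in 0.0122% of them. The 15-base run occurs in 3 windows, or 0.00913%. Both runs were taken from these same promoters, so the windows counted are those of the genes that define each run. No other window holds either run. The letters TATAAA, which are known to position transcription starts, stand 32 bases before the start of Myh1 and 31 before that of Myh4, and were not in the Myh2 window. In the Myh8 window they stand on the reverse strand only, with 1 match, against 2 matches on both strands together for Myh1 and 3 for Myh4, while 12.4% of all windows hold them on either strand. These matches describe letters and are not measured binding sites.

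Myh7 has 2 RefSeq starts, and the window of the start further downstream is shown for contrast. Of the 7 members, Myh7 alone was higher in normal exercise than in normal control. The window lies on the minus strand of chromosome 14 and holds neither shared run. The RefSeq start used, 54994549, also differs from the GENCODE gene end at 54994626, where the gene begins on that strand.
Myh7 (chr14:54994550-54994799): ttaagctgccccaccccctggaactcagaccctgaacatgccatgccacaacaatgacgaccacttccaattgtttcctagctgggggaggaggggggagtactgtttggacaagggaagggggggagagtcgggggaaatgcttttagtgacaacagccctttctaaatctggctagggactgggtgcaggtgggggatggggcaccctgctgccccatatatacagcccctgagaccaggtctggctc

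Myh7 and Myh7b each carry a miRNA of a family tied to slow muscle inside an intron. The hairpin of miR-208b lies in intron 31 of Myh7 (chromosome 14, 54975700 to 54975776, minus strand), and that of miR-499 in intron 19 of Myh7b (chromosome 2, 155622880 to 155622958, plus strand). The mature sequences below are from RefSeq, with the seed, bases 2 to 8, in capitals.
miR-208b-3p: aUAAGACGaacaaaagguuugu
miR-499-5p: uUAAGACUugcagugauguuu
The seeds agree in 6 of 7 bases. Neither miRNA was measured here, since the libraries hold polyadenylated RNA, so the host genes stand for themselves only.

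Reads came from the 3′ end of each transcript (QuantSeq 3′ mRNA-Seq), in which a transcript gives about 1 read whatever its length, so levels were compared between genes without dividing by length. The unit is the normalized read count of the study. Libraries held 10647112 to 13226120 reads, rebuilt here from the deposited values. Muscle markers were abundant in every library, Acta1, the skeletal actin, between 134849 and 347342 normalized reads. The 7 genes took 2.05% of all reads in normal control, 1.39% in normal exercise, then 2.04% in cancer control against 1.44% in cancer exercise. In bulk tissue, fewer fibres of a type and less RNA per fibre cannot be told apart. All intervals are 95% exact (Clopper-Pearson) intervals of the reads and cover counting error only. No molecular identifiers are described, so PCR copies are not set apart.

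How far a read can tell the isoforms apart was checked on their last 500 transcript bases in 75-base windows, the read length used. Of 426 windows of Myh7, 180 were identical to a stretch of Myh6, the fast chain of the heart, and 320 had at most 3 mismatches to it. For Myh1 and Myh2 47 of 426 windows were identical and 60 had at most 3 mismatches. For Myh1 and Myh4 these were 9 and 78, and for Myh2 and Myh4 9 and 54. Myh8 had no identical window in another myosin heavy chain gene, but with at most 3 mismatches 25 of its windows matched Myh4, 37 Myh1 and 42 Myh2. Myh3 and Myh7b had no window that close to any other of these genes. How reads matching several genes were counted is not given in the sources used here, so values of Myh7 against Myh6 are uncertain. Fewer windows are shared among Myh1, Myh2, Myh4 and Myh8, but their values against one another are uncertain too, which includes their shares and ratios. Of these, Myh8 has the fewest reads, and Myh4, to which Myh1, Myh2 and Myh8 have close windows, the most. In normal control Myh4 had 215165 reads, against 7241 for Myh1 and 7271 for Myh2. How many reads of Myh4 were counted for the others was not tested.

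The fast chain Myh4 dominated in every library. Its normalized read count was 228842 in normal control and 137302 in normal exercise, then 195389 in cancer control against 141947 in cancer exercise. Both exercised libraries were below both sedentary ones. Myh4 was the single member of 7 with that order, against 10.6% of the 15485 genes that reached 4 normalized reads in any library. The count of members is thus near that share. By abundance among all genes Myh4 ranked 7, 10, 2 and 10, in the same order of libraries. As a share of the 7 genes, Myh4 made up 93.1% (93.0 to 93.2) in normal control and 92.5% (92.4 to 92.6) in normal exercise, but 84.1% (84.0 to 84.3) in cancer control and 82.3% (82.1 to 82.5) in cancer exercise. The share was thus lower with the tumor at both activity levels.

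Myh1 (IIx) was the isoform that took up most of that share. Its normalized read count was 7701 in normal control and 4450 in normal exercise, then 18990 in cancer control against 16914 in cancer exercise, with both tumor libraries above both tumor-free ones. Its share was 3.13% (3.06 to 3.20) and 2.998% (2.92 to 3.08) without the tumor and 8.18% (8.06 to 8.29) and 9.81% (9.66 to 9.96) with it, sedentary first.

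Myh2 (IIa) had 7733 normalized reads in normal control, 5144 with exercise, 15013 with the tumor and 11568 with both. Rows of 4 values below keep this order of libraries. Again the tumor libraries stood above the tumor-free ones. Its share was 3.15% (3.07 to 3.22), 3.47% (3.38 to 3.55), 6.46% (6.36 to 6.57) and 6.71% (6.59 to 6.83). Together, Myh1 and Myh2 held 6.28% and 6.46% of the 7 genes without the tumor and 14.6% and 16.5% with it.

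Ratios within a library do not depend on how libraries are scaled. For 100 reads of Myh4 there were 3.37 reads of Myh1 in normal control and 3.24 in normal exercise, then 9.72 in cancer control against 11.9 in cancer exercise. For Myh2 these were 3.38, 3.75, 7.68 and 8.15. For 100 reads of Myh2 there were 99.6, 86.5, 127 and 146 of Myh1. The IIx transcript thus stood level with or below the IIa transcript without the tumor and above it with the tumor.

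**Figure D1:**
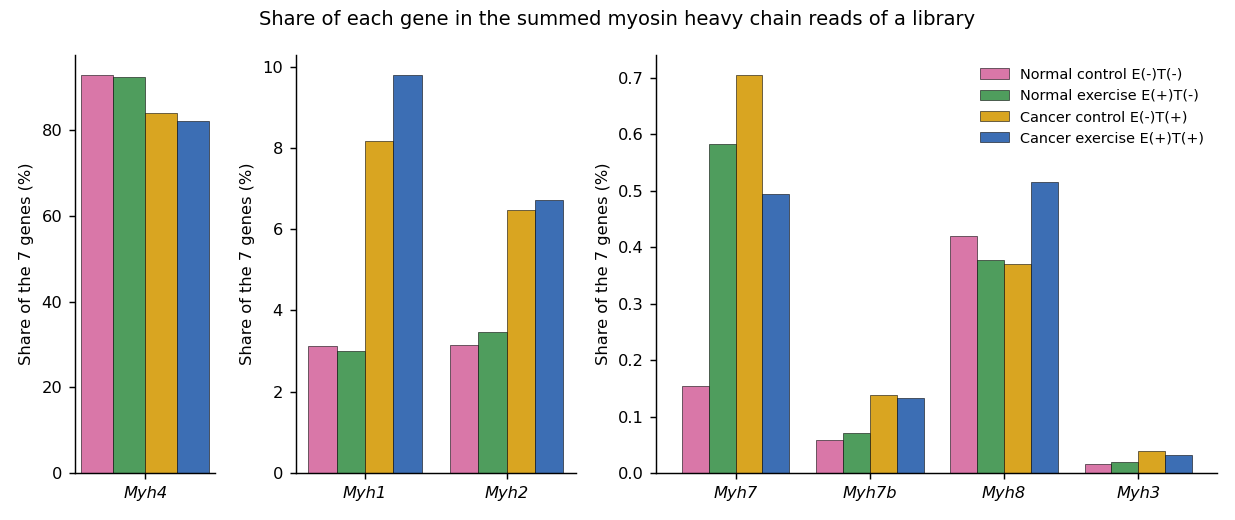
Share (%) of each gene in the summed normalized reads of the 7 myosin heavy chain genes, 1 bar per library, on 3 linear axes that start at 0. Myh4 is above 92% in both tumor-free libraries and below 85% in both tumor libraries, Myh1 and Myh2 show the opposite order, and Myh7 is lowest in normal control.

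Myh7, the slow chain, did not follow the fast genes. It had 378.8 normalized reads in normal control, 866.7 in normal exercise, then 1641 in cancer control against 851.2 in cancer exercise, from 356, 1069, 1532 and 786 reads. Normal control was lowest and cancer control highest, with both exercised libraries between them and close to each other. Its share was 0.154% (0.138 to 0.171), 0.584% (0.549 to 0.620), 0.706% (0.672 to 0.742) and 0.494% (0.460 to 0.529). Per 100 reads of Myh4 there were 0.166, 0.631, 0.840 and 0.600 reads of Myh7.

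Rows of Myh6 and Mhrt moved with Myh7. Myh6 had 33.1 reads per 100 reads of Myh7 in both tumor-free libraries, 31.1 in cancer control and 34.0 in cancer exercise, a spread within the counting intervals (26.7 to 40.9 in normal control). Mhrt, a noncoding gene whose 3666 bases of overlap with Myh7 lie on the opposite strand, had between 24.4 and 29.6 per 100. Strand use in counting is not given in the sources used here, so reads of Myh7 and Mhrt cannot be told apart. Myhas and 9430073C21Rik, noncoding genes on the other strand, overlap Myh1 and Myh2 by 13320 and 1838 bases and were not analysed here. The heart markers Myl7, an atrial light chain, and Nppa, a natriuretic peptide, had 0 reads and at most 3 reads a library.

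Myh7b (slow-tonic) had 142.5, 104.4, 319.0 and 229.6 normalized reads. This was the order of Myh2 rather than of Myh7. Per 100 reads of Myh7 there were 37.6 (30.6 to 46.0), 12.1 (9.97 to 14.5), 19.5 (17.1 to 22.0) and 27.0 (23.1 to 31.4) of Myh7b. The proportion of reads of these 2 genes thus varied between libraries, though the intervals of normal control and cancer exercise overlapped. Protein was not measured. Of the 5 spindle genes listed, 3 were at least 2-fold higher in cancer control than in normal control, against 20.9% of all genes tested, but these rest on few reads. Egr3, a factor that spindles need, had 7, 5, 16 and 5 reads, Etv4, an ETS factor, had 0, 16, 26 and 22, and Gdnf, a growth factor, had 0, 0, 13 and 4. Etv1, another ETS factor, had 55 to 64 reads and Ntf3, a neurotrophin, 19 to 34, and neither differed 2-fold between these libraries.

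Of the developmental chains, Myh8 (perinatal) was the more abundant, with 1034, 560.1, 858.9 and 889.2 normalized reads. Normal exercise was lowest and the other libraries lay between 858.9 and 1034. Its share ranged from 0.370% in cancer control to 0.516% (0.481 to 0.552) in cancer exercise. Myh3 (embryonic) was the least abundant member, with 38.31, 29.89, 90.96 and 54.14 normalized reads from 36, 37, 85 and 50 reads. Both tumor libraries were above both tumor-free ones, from few reads. Myh13, the superfast chain next to Myh8, had 8.98 to 11.3 reads per 100 reads of Myh8.

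Across the 4 libraries, Myh1, Myh2, Myh3 and Myh7b were higher in both tumor libraries than in both tumor-free ones, which makes 4 of 7 members against 26.7% of the 15485 genes. None of the 7 was lower in both tumor libraries, against 26.9% of the genes.

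**Figure D2:**
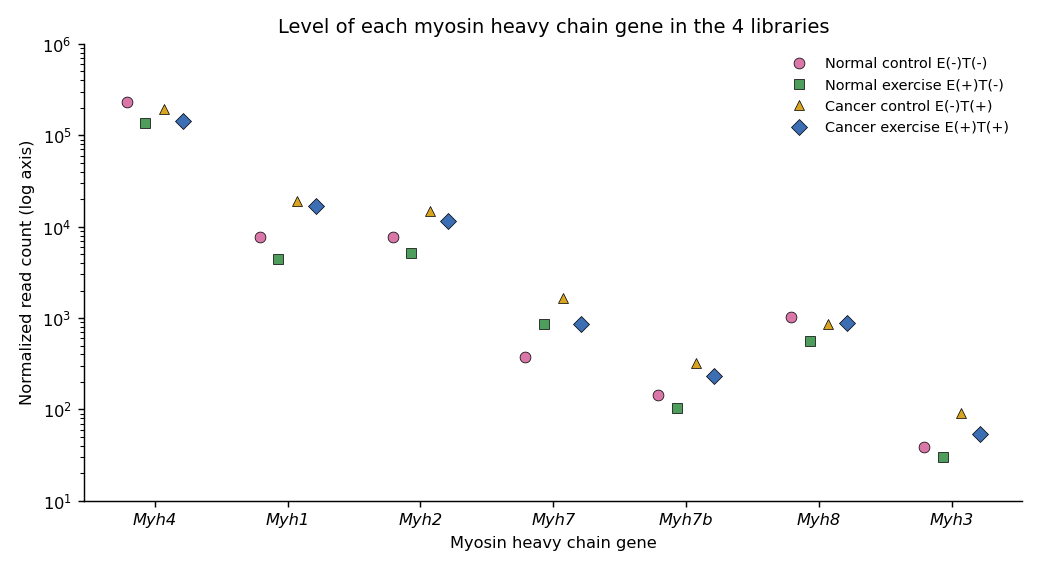
Normalized read count (log axis) of the 7 genes, 1 point per library and no error bars since each group has 1 library. Levels span from 29.89 for Myh3 to 228842 for Myh4, and the tumor libraries (triangle, diamond) are above the tumor-free ones (circle, square) for Myh1, Myh2, Myh7b and Myh3.

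The first comparison asked what exercise changed in healthy mice. A gene was called when it differed at least 2-fold and reached 4 normalized reads in either library of the pair. The study names these limits of fold and read count but not how many libraries of a pair had to reach the second, so its rule may differ from the one used here. Only Myh7 was called, and it was higher, 1 of 7 members. Of the 14518 genes tested, 21.5% were called, 9.44% higher and 12.1% lower. Its log2 difference, exercise minus control, was 1.19 (1.02 to 1.37), or 2.29-fold. The other 6 were lower in normal exercise without being called, from −0.88 (−1.03 to −0.74) for Myh8 and −0.79 for Myh1 to −0.35 for Myh3, whose interval (−1.05 to 0.35) included 0. Myh4 stood at −0.74 and Myh2 at −0.59. The median of the 7 was −0.59, against −0.01 over all genes tested. Erythroid markers moved in this pair, with Hba-a1, a haemoglobin chain, at 163734 and 36737 normalized reads, and their part in these values was not tested.

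The second comparison asked what the tumor changed in sedentary mice. It called 4 of 7 members, all higher, where 45.1% of the 14818 genes tested were called, 20.9% higher and 24.2% lower. Myh7 differed most, by 2.11 on the log2 scale (1.95 to 2.29), a 4.32-fold higher level in cancer control. Myh1 followed at 1.30 (1.26 to 1.34), Myh3 at 1.23 (0.67 to 1.85) and Myh7b at 1.16 (0.86 to 1.47). Myh2 lay just outside the threshold at 0.96 (0.916 to 0.998), a 1.94-fold difference. It passed the threshold, so that 5 of 7 were called, with scaling to the total (1.03) and to the summed muscle markers (2.03). Myh4 was at −0.23 and Myh8 at −0.27, and both turned positive (0.84 and 0.81) when libraries were scaled to the summed muscle markers. The median of the 7 was 1.16, against −0.04 over all genes.

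The third comparison asked what exercise changed in tumor-bearing mice. No member was called on the deposited scale, where 30.6% of the 14491 genes tested were called, 15.6% higher and 15.1% lower. Myh7 came closest, at −0.95 (−1.07 to −0.82), followed by Myh3 at −0.74 (−1.28 to −0.23). With scaling to the total Myh7 was called lower, and with scaling to the summed muscle markers Myh7, Myh3 and Myh7b were (−1.48, −1.27 and −1.01). Myh7b was at −0.47, Myh4 at −0.46, Myh2 at −0.38 and Myh1 at −0.17. Myh8 stood at 0.05, with an interval (−0.09 to 0.19) that included 0 and a sign that flipped under other scalings. The median of the 7 was −0.46, against 0.01 over all genes.

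The comparison of exercised mice with and without the tumor called 3 of 7 members, all higher with the tumor, where 30.3% of the 14470 genes tested were called, 13.9% higher and 16.3% lower. Myh1 differed most, at 1.93 (1.88 to 1.97), or 3.80-fold, then Myh2 at 1.17 (1.12 to 1.21) and Myh7b at 1.13 (0.81 to 1.46). With scaling to the total Myh7b stood at 0.97 and was no longer called, which left 2 of 7, and with scaling to the summed muscle markers Myh3 reached 1.16, which made 4. Myh3 was at 0.84 (0.21 to 1.51) and Myh8 at 0.67 (0.52 to 0.81). Myh4 and Myh7 were near 0, at 0.05 and −0.03, and the sign of each flipped under at least 1 other scaling. The median of the 7 was 0.84, against −0.03 over all genes. Each library enters 2 of the 4 comparisons, so they are not independent of one another.

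**Figure D3:**
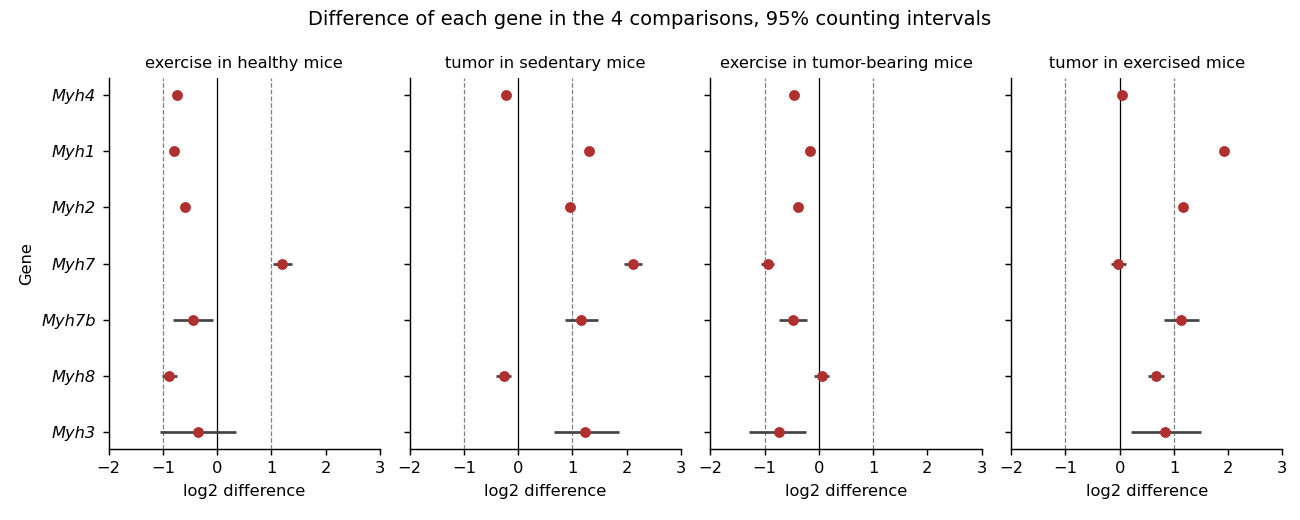
Log2 difference of each gene in the 4 comparisons (points), with 95% counting intervals (bars, hidden by the point where short), dashed lines at the 2-fold threshold. Myh7 is past it in both comparisons with normal control and near 0 for the tumor in exercised mice, while Myh1 is past it in both tumor comparisons; the signs of Myh4 and Myh8 for the tumor in sedentary mice, of Myh8 for exercise in tumor-bearing mice and of Myh4 and Myh7 for the tumor in exercised mice depended on scaling.

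Slow fibres carry their own set of partner proteins, and 10 such genes were listed. In normal exercise against normal control, all 10 were above 0, 4 of them called higher, where 9.44% of all genes tested were, with a median of 0.76. For the tumor in sedentary mice 8 of 10 were called higher, against 20.9% of all genes, with a median of 1.87. For exercise in tumor-bearing mice 4 of 10 were called lower, against 15.1% of all genes, with a median of −0.96. For the tumor in exercised mice 1 was called higher, near the 13.9% of all genes, with a median of −0.003. Myl2, the slow regulatory light chain, had 1281, 3157, 4585 and 2080 normalized reads. Tnnt1, slow troponin T, had 1113, 1855, 3489 and 1859. Both had the order seen for Myh7, with normal control lowest and cancer control highest. Myoz2, a slow-fibre Z-disc protein, differed from it, at 1232, 1962, 6713 and 6225, high in both tumor libraries. Tpm3, the slow tropomyosin, had 1596, 2626, 5996 and 3570, and Myl3, a slow essential light chain, had 3458, 4652, 6130 and 2474.

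Of 10 fast-fibre partners listed, 7 were called lower on the deposited scale with the tumor in sedentary mice, against 24.2% of all genes tested. Their median was −1.60, while Myh4 was at −0.23. With the tumor in exercised mice 4 were called lower, against 16.3% of all genes, with a median of −0.78, while Myh4 was at 0.05. In the exercise comparisons the median of the partners lay above Myh4. Exercise gave no call among them in healthy mice, against 21.5% of all genes tested, with a median of the partners of −0.30 and Myh4 at −0.74. In tumor-bearing mice 2 were called higher, against 15.6% of all genes, with a median of 0.62 and Myh4 at −0.46. Mylpf, the fast regulatory light chain, had 240553, 164074, 59104 and 111369 normalized reads, a log2 difference of −2.03 for the tumor in sedentary mice. Tnnc2, fast troponin C, had 403720, 340665, 112377 and 163507, a difference of −1.85. Tnni2 and Tnnt3, fast troponins I and T, differed by −0.03 and 0.28 in the same comparison, and Atp2a1, the fast calcium pump, by 0.49. Members of this list therefore split on the deposited scale, Mylpf and Tnnc2 called lower and the troponins I and T within 1.21-fold. Myl1, the fast essential light chain, and Pvalb, the calcium buffer parvalbumin, chosen after their values were seen, differed by −3.22 and −4.18. Scaling to the summed muscle markers shifts the tumor comparison in sedentary mice by 1.07. Mylpf and Tnnc2 were then not called, and Tnnt3, Tnni2 and Atp2a1 were called higher. Under that scaling fewer partners were called lower in both tumor comparisons, and fewer higher for exercise in tumor-bearing mice.

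**Figure D4:**
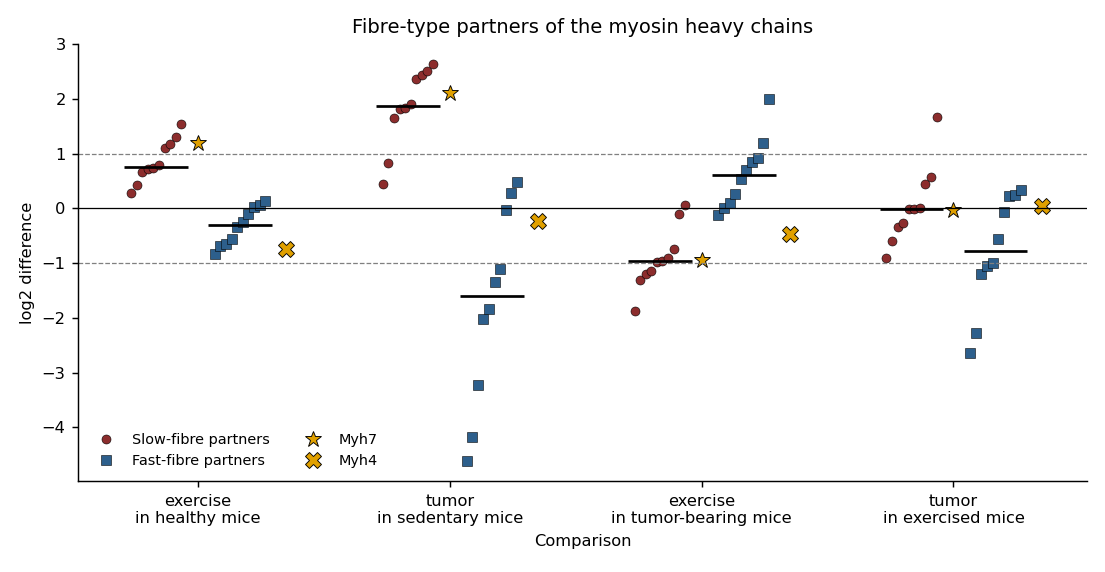
Log2 difference of 10 slow-fibre and 10 fast-fibre partner genes in the 4 comparisons (small points; black bars are medians), with Myh7 and Myh4 beside them and dashed lines at the 2-fold threshold. Myh7 lies among the slow partners in each comparison, while Myh4 (−0.23) lies above the median of the fast partners (−1.60) for the tumor in sedentary mice, and its sign there depends on scaling.

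Between Myh3 and Myh2, on the opposite strand, lies the noncoding gene 2310065F04Rik, listed by RefSeq as linc-Myh (chromosome 11, 67112461 to 67120080), which is known to act with the fast gene programme. It had 3499 normalized reads in normal control, 1791 in normal exercise, against 142.5 and 131.1 with the tumor. Both tumor libraries were far below both tumor-free ones. It differed by −4.61 (−4.88 to −4.37) for the tumor in sedentary mice and by −3.76 (−4.05 to −3.51) in exercised mice. Per 100 reads of Myh4 it had 1.53, 1.30, 0.0729 and 0.0923 reads. It does not overlap any of the 7 genes.

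**Figure D5:**
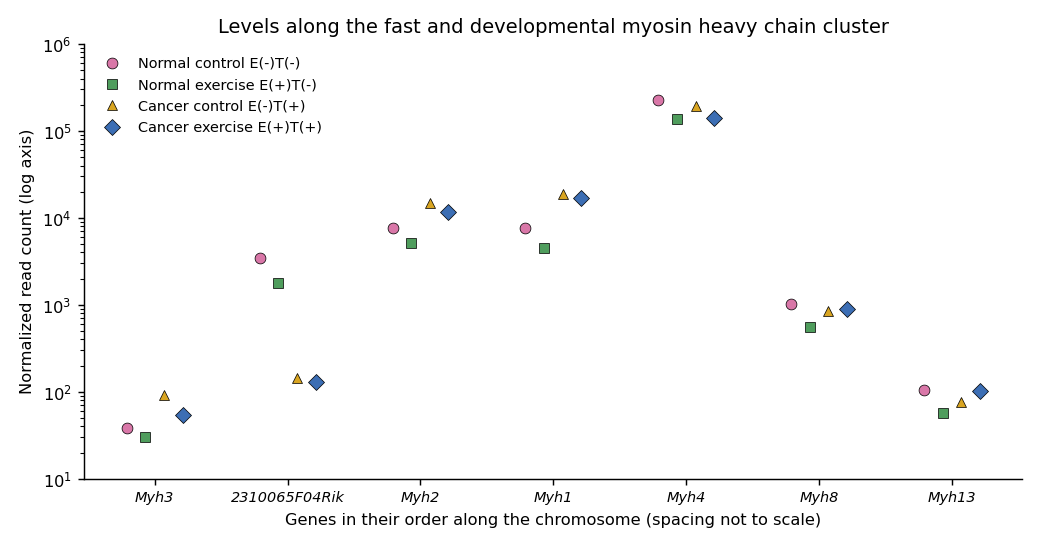
Normalized read count (log axis) of the genes of the chromosome 11 cluster in their order, 1 point per library, without error bars. 2310065F04Rik is high in both tumor-free libraries and at 142.5 and 131.1 in the tumor libraries, whereas Myh2 and Myh1 have the opposite order and Myh4, Myh8 and Myh13 differ less.

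Among 26 listed regulators of fibre type, 25 tested in each of the first 3 comparisons, the tumor in sedentary mice called 3 higher and 8 lower, where 20.9% and 24.2% of all genes tested were called, with a median of −0.29. Mef2c, an activator of muscle genes, had 16157, 11143, 2102 and 4941 normalized reads, a difference of −2.94. Vgll2, a partner of TEAD factors, had 1757, 1436, 5491 and 5575 and was high in both tumor libraries, a difference of 1.64. Sox6, a repressor of slow genes in fast fibres, had 1284, 2100, 775.6 and 1210, a difference of −0.73. Nfix, a factor of the fetal switch, had 5633, 6816, 4997 and 5187 and was not called in any comparison. In healthy mice exercise called 0 higher and 5 lower of the 25, where 9.44% and 12.1% of all genes were called.

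Of 9 listed genes that fold or break down myosin, 3 were called higher and 2 lower for the tumor in sedentary mice, where 20.9% and 24.2% of all genes were, so the lower count is near that share. Trim63, the ligase MuRF1 that marks myosin heavy chains for degradation, had 5950, 1828, 93779 and 41938 normalized reads, and Fbxo32, the ligase atrogin-1, had 3575, 811.9, 37250 and 18103. Both were lowest in normal exercise and highest in cancer control. Smyd1, a methyltransferase needed for thick filament assembly, had 4025, 4011, 1073 and 2330, a difference of −1.91. Hsp90ab1, a chaperone, had 19416, 22756, 43147 and 36509, and Trim54, a relative of Trim63, ranged from 1835 to 2130.

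Among thick filament partners, 8 of 9 were tested, and 2 were called higher and 1 lower for the tumor in sedentary mice, with a median of 0.06. Over all genes 20.9% were called higher and 24.2% lower, so the higher count is near that share. With 8 genes tested, neither count is read as a result. Ttn, the giant ruler protein titin, ranged from 33247 to 45702 normalized reads. Mybpc1, the slow myosin binding protein C, had 1744, 1781, 4326 and 3251, a difference of 1.31. Myom2, an M-band protein, had 11182 in cancer exercise and 4320 to 4880 in the other libraries. Myom1, another M-band protein, was at 5144 to 7621.

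Among developmental and regeneration genes, 11 of 12 had a row, and the tumor in sedentary mice called 4 higher and 4 lower, where 20.9% and 24.2% of all genes were called. Actc1, the cardiac actin of developing muscle, had 1013, 123.1, 45.05 and 79.11 normalized reads and was highest in normal control, whereas Myh3 was lowest in the tumor-free libraries. Myod1, a muscle determination factor, had 306.2, 288.6, 21.49 and 213.4, low in cancer control. Myog, a factor of differentiation, had 76.6, 174.3, 205.6 and 185.2, lowest in normal control. Chrna1, an acetylcholine receptor subunit, had 104.3, 166.2, 193.8 and 349.7, and Ncam1, an adhesion protein, 147.8 to 232.8. The median of the list was −0.09.

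Of the other myosin heavy chains, Myh9 and Myh10, nonmuscle chains, ranged from 754.9 to 1206 and from 154.7 to 259.1 normalized reads. Myh11, the smooth muscle chain, had 450.0, 402.1, 206.8 and 390.0, low in cancer control. Myh14, a nonmuscle chain that muscle also makes, had 101.1, 100.4, 283.8 and 323.7 and was the one of these that was high in both tumor libraries. Myh15 had 0 reads in every library, which allows up to 3 reads.

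The genes whose pattern over the 4 libraries was most like that of a member were found by distance between centred log2 values, over the 10502 genes that reached 16 normalized reads in each library. The nearest to Myh7 was Myh6 (0.098), then Brap and Rbm4b. For Myh1 these were Sorbs3 (0.074) and Cyr61, for Myh2 Eef2 (0.071), Tut1 and Selenbp1, and for Myh4 Mapk8ip1 (0.085), Cstf3 and Renbp. For Myh3 they were Atf6 (0.035), Ptbp2 and Litaf, for Myh8 Map7d2 (0.062), Notch1 and Slc22a23, and for Myh7b Anxa4 (0.057), Kmt2b and Selenbp1. Between members, Myh2 and Myh7b were closest (0.146), then Myh3 and Myh7b (0.229), and Myh7 and Myh8 were farthest apart (1.83). Over 4 points, many genes come close to any pattern.

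Summed markers of other cell types differed between the libraries to unlike degrees. Summed tendon markers, 5 genes, were at 4248 and 1521 normalized reads without the tumor and 167.3 and 376.2 with it, sedentary first. Summed fibroblast markers, 5 genes, were at 78275, 41015, 36123 and 36346, adipocyte markers, 5 genes, at 15720, 5452, 4540 and 9951, and erythroid markers, 5 genes, at 249006, 51510, 235229 and 504487. Summed neutrophil markers, 5 genes, were at 68.29, 148.6, 2623 and 1858, and keratinocyte markers, 6 genes, at 237.3, 217.9, 497.0 and 91.23. Of the keratinocyte markers, Krt1, Krt5 and Flg2 had reads in cancer control alone (7, 20 and 148). Schwann cell markers, 4 genes, were at 3903, 2158, 4376 and 1404, macrophage markers, 3 genes, at 1013, 1186, 1618 and 1169, endothelial markers, 4 genes, at 2250, 2935, 2382 and 2581, smooth muscle markers, 3 genes, at 1296, 1524, 668.4 and 1156, and spindle genes, 5, at 86.26, 96.26, 143.2 and 129.9. Sums can hide their members. In normal control and cancer control, the macrophage markers Cd68, Csf1r and Adgre1 were at 92.57 and 1024, 848.8 and 525.8, and 71.25 and 67.5. In the same libraries Dcn, the largest fibroblast marker, was at 57888 and 35363, and Col1a1 at 9741 and 124.3. The summed muscle markers, 6 genes, were at 550629, 477298, 261742 and 379869, lowest in cancer control. Acta1 gave 347342 of the sum in normal control and 134849 in cancer control, so scaling to this sum followed Acta1 most. Des, at 15435 and 29348 in these 2 libraries, was the 1 marker of the 6 that was higher in cancer control. The part of these values in the differences of the 7 genes was not tested. The shares and ratios above are within a library and do not depend on its scaling.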

How the data were processed

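Gastrocnemius muscle was profiled in 4 libraries, 1 for each group. According to the methods, the authors aligned QuantSeq 3′ reads with Bowtie2, counted them with bedtools coverage and applied quantile normalization in edgeR. The submitters' processing notes name mm10. The annotation, the use of strand and the handling of multiply matching reads are not given in the sources used here. For 23282 rows, the authors deposited log2 values of normalized reads, with 1 added as a pseudocount. A linear value is called the normalized read count here.

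Groups were taken from the sample titles. Differences are differences of the deposited log2 values, which understates changes of low genes. Whole reads were rebuilt from the steps of these values with functions written for this work in base R 4.3.3, which invert a quantile mapping to a common library size with a fitted dispersion of 0.339, and 100% of values came from a whole read count within 6e-04 on the log2 scale. No count test was run on them, since the deposited unit is log2. For abundant genes, reads are approximate. The procedure was tested on simulated data. Reads served for 95% Clopper-Pearson intervals, scaled by a trimmed mean of log ratios (TMM). A count of 0 allows up to 3 reads, at most 2.82e-05% of a library.

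The 7 members and the 20 gene lists were chosen with earlier results of these data known. Named from a list were at most the 5 members with the highest mean, and others are said to be chosen later or are markers. For each member the 3 genes nearest in pattern were named, except that 2 genes which these rules name are not reported here. Gene ends are from GENCODE and promoters and miRNAs from RefSeq. Python 3.11.15 was used. Alternatives were pseudocounts of 0.25 and 4, other minimums, folds of 1.5 and 4, and scaling to the total, by median of ratios and to the summed muscle markers. Scaling of rebuilt reads by TMM was added after the data were seen.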

Additional observations from a re-analysis of the deposited data

Results flagged for a closer look

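The exercise difference of Myh7, the slow myosin heavy chain, was 1.19 on the log2 scale in healthy mice and −0.95 in tumor-bearing mice, so that the second minus the first was −2.14. It was singled out because the libraries moved in opposite directions. The difference between the 2 settings was not tested, since each group has 1 library. Its sign pattern held under each scaling tried, with the value in healthy mice between 1.19 and 1.40 and in tumor-bearing mice between −1.48 and −0.94.

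The tumor difference of Myh4, the fast IIb chain, was −0.23 in sedentary and 0.05 in exercised mice, a gap of 0.28 that was not tested, and both signs depended on scaling.

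The tumor difference of Myh8, the perinatal chain, was −0.27 in sedentary and 0.67 in exercised mice, a gap of 0.93 that was not tested. The value in sedentary mice ranged up to 0.81 under other scalings, where both values are positive.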

How the results depend on the processing

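The count of members called depended on the fold asked for and, in each comparison but exercise in healthy mice, on scaling. For exercise in healthy mice it was 1, against 5 at 1.5-fold and 0 at 4-fold. For the tumor in sedentary mice it was 4, against 1 at 4-fold, and 5 with Myh2 added under scaling to the total and to the summed muscle markers. For exercise in tumor-bearing mice it was 0, against 2 at 1.5-fold, 1 with scaling to the total and 3 with scaling to the summed muscle markers. For the tumor in exercised mice it was 3, against 5 at 1.5-fold and 0 at 4-fold, 2 without Myh7b under scaling to the total and 4 with Myh3 under scaling to the muscle markers. The other 36 of 44 recounts stayed within 1.5 times the count reported. No called difference changed sign under the pseudocounts and scalings tried. Scaling to the total shifted the log2 differences by 0.16, 0.07, −0.07 and −0.16 in the 4 comparisons, in the order of the report, scaling by median of ratios by at most 0.04 in size, and scaling to the muscle markers by 0.21, 1.07, −0.54 and 0.33. The cause was not tested. No paired analysis was possible because each group has 1 library, and for the same reason no library could be left out. Myh3, with 36 to 85 reads, is the member that depth limits most.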
